A study of Mus musculus with 34 samples.

Results

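The Serpina genes encode clade A of the serpins, secreted proteins that the liver makes in large amounts. Described here are 10 of them, chosen by symbol from the 35976 symbols of a liver expression table: the antitrypsin copies Serpina1a, Serpina1b, Serpina1c, Serpina1d and Serpina1e, the antichymotrypsin-like Serpina3k and Serpina3n, the hormone carriers Serpina6 and Serpina7, and Serpina12. They were selected on levels measured in these same livers, with the changes between knockout and control groups in view. The changes below therefore describe chosen genes, and a count of them past a threshold supports nothing further. The 34 livers came from C57BL/6 mice homozygous for both TetO-Cas9, a Cas9 nuclease under a tetracycline-responsive promoter, and Rosa-rtTA, its activator placed at the Rosa locus. Every mouse, controls included, received an adeno-associated virus (AAV) with a guide RNA and ate a Western diet for 3 months. The guides were directed at Bcl6 (5 livers), Irs1 (5), Smyd2 (6), Srebf1 (5) or Tbx3 (7), and these groups are called knockouts (KO). The control group of 6 pooled 4 livers given sgGFP and 2 given sgLacZ, guides against sequences that mice lack. The labels state neither age nor sex, nor the share of liver cells that was edited.

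Inhibitory serpins work as bait. A protease cuts an exposed loop of the serpin, and the serpin then changes shape and traps the enzyme. Antitrypsin restrains neutrophil elastase in this way. Mice carry several near-identical antitrypsin genes side by side. Serpina3k is a kallikrein-binding protein and Serpina3n an acute-phase inhibitor of proteases such as granzyme B. Serpina6, corticosteroid-binding globulin, and Serpina7, thyroxine-binding globulin, have the serpin fold but carry hormones in plasma instead of blocking proteases. Serpina12, or vaspin, is known as an adipokine linked to insulin sensitivity. The hepatocyte factor HNF4A drives many genes of this family.

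The antitrypsin copies share a stretch of nearly the same DNA before their starts, which is shown for all 5. It does not lie at the same distance from each start. Whether this stretch has a part in the levels of the copies was not tested. RefSeq promoter windows (assembly GRCm38.p6, 250 bases before to 50 after each gene's start) were found for 8 of the 10 genes, all but Serpina3k and Serpina6. Each run below is the part that the 5 copies share, on the minus strand of chromosome 12 and written 5′ to 3′. Capitals mark a base or insertion that differs from the majority of the 5. The positions are chr12:103863625-103863812 for Serpina1a, chr12:103738200-103738389 for Serpina1b, chr12:103904962-103905149 for Serpina1c, chr12:103773634-103773822 for Serpina1d and chr12:103956960-103957147 for Serpina1e.
Serpina1a: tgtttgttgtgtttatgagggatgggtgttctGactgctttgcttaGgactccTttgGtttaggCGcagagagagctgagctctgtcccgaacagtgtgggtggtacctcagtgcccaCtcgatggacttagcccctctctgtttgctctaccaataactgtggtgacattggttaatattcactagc
Serpina1b: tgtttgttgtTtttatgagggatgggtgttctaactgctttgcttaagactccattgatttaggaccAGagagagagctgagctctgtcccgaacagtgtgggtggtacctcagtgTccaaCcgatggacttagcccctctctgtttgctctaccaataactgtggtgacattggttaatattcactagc
Serpina1c: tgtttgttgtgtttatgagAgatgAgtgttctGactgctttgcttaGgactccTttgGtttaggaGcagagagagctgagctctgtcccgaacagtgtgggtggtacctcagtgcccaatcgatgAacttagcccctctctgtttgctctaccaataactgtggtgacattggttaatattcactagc
Serpina1d: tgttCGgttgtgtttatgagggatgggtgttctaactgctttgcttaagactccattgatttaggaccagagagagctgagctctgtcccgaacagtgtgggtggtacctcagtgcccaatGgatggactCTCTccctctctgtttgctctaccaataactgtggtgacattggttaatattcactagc
Serpina1e: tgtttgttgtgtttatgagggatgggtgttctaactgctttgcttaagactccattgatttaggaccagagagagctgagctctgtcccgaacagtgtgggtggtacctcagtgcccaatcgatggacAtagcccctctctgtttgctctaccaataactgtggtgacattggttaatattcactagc
The copies were 92.6% to 97.9% identical over this stretch, and 23 of 191 alignment columns differed in at least 1 copy. Serpina1e, the copy whose level varied most between livers, departed from the majority at 1 base, fewer than any other copy.

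Motifs of factors tied to the guide targets were searched on both strands of the windows. TTCNNNGAA, a motif of BCL6 and STAT5, is in 8.3% of the 32851 RefSeq windows of the same length, the T-box core AGGTGTGA in 1.3% and the SREBP motif TCACNCCAC in 1.2%. None of these 3 motifs is in any of the 8 windows found for these genes, which says only that these letters are not in these windows. Serpina3k and Serpina6 had no window, so no motif was searched for at their starts. No motif searched contains another.

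By the GENCODE M21 annotation (GRCm38), 9 of the 10 genes sit within 768 kb of chromosome 12, from base 103646630 to base 104414329, and Serpina7 is on chromosome X. The annotated mRNAs of the 5 antitrypsin copies were 96.3% to 98.5% identical. Only 19.1% of the 50-base windows of the Serpina1a mRNA occur in no other gene, against 25.8% for Serpina1c, 49.1% for Serpina1d, 52.9% for Serpina1b and 62.1% for Serpina1e. Reads may therefore be shared among the copies, and the split between them is uncertain. Their sum also depends on how shared reads were counted. All 5 share 50-base windows with Gm8893, which is outside the sum. The share of unique windows was 86.0% for Serpina3k, 93.1% for Serpina3n and 100% for Serpina6, Serpina7 and Serpina12. Serpina6 is annotated at chr12:103646630-103657212, Serpina12 at chr12:104028769-104044443, Serpina3k at chr12:104338486-104346144, Serpina3n at chr12:104406729-104414329 and Serpina7 at chrX:139079257-139085236. The annotated Serpina1b gene spans Serpina1d. Serpina3k and Serpina3m share a start, and the annotated Serpina3m gene spans all of Serpina3k on the same strand. How reads of such overlapping genes were counted is not stated.

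Levels are given in FPKM as the authors deposited them, that is, reads corrected for transcript length and library size. The low values implied 2110000 to 3120000 counted reads per library. Serpina12 rested on 54 to 250 implied reads in a liver, and Serpina1e was as low as 5.60 FPKM in 1 Bcl6 KO liver, so both are thinly counted there. All 10 hepatocyte markers looked up were detected in every group. Of the guide targets, Srebf1 mRNA was 498.8 to 631.7 FPKM in 4 of the livers labelled Srebf1 KO. It was 1908 in the library labelled Srebf1 KO replicate 1, within the control range of 1095 to 2177, so this mRNA level goes against the label. The library is called doubtful below for that reason, although the level does not show whether the gene was edited. The mRNA of each of the other 4 targets overlapped the controls, and small edits need not change an mRNA level. A gene is called here when its limma adjusted p (two-sided, Benjamini-Hochberg over 19295 genes, on log2(FPKM + 1)) was under 0.05. The 5 comparisons share the same 6 control livers. In bulk tissue, fewer cells of a type and less RNA per cell cannot be told apart.

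Antitrypsin mRNA was higher than in controls in the Bcl6, Irs1 and Srebf1 knockout livers, by the summed level of the 5 copies. The summed FPKM ran from 4436 to 7267 (median 5973) in the controls. In Bcl6 KO it was 11643, 10441, 8076, 11158 and 9602, on average 1.75 times the control mean. In Irs1 KO it was 10162, 11206, 12229.8, 10587 and 9479.9, or 1.84 times. Every liver of these 2 groups lay above every control. In Srebf1 KO the sum was 11009, 9293, 8809.7, 8403 and 8281, 1.57 times the control mean, again with no overlap and with the highest value in the doubtful replicate 1. Without that library the log2 change of the sum went from 0.67 to 0.60. Smyd2 KO (6318 to 10217, median 8298) and Tbx3 KO (6224 to 9139.7, median 7542) overlapped the controls, with 3 of 6 and 5 of 7 livers above all controls.

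**Figure D1:**
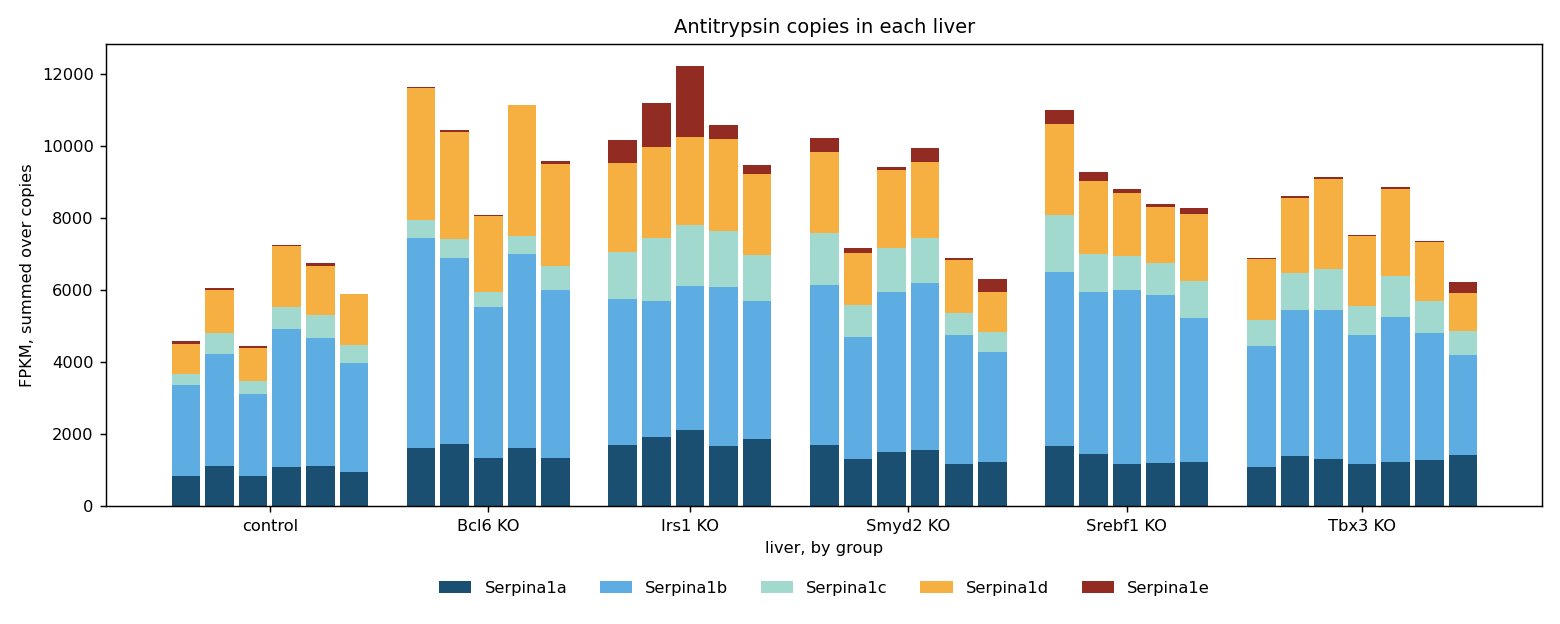
Each bar is 1 liver and its height the FPKM summed over the 5 antitrypsin copies, stacked by copy and set apart by group. The bars of Bcl6 KO, Irs1 KO and Srebf1 KO all exceed the tallest control bar of 7267 FPKM, and the Serpina1e share is widest in Irs1 KO.

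The copies did not change in step. Serpina1a, the copy with the least relative spread in controls, was 988 ± 133 (SD, n = 6) FPKM in controls and higher in each knockout mean, from 1265 ± 124 (SD, n = 7) in Tbx3 KO to 1848 ± 178 (SD, n = 5) in Irs1 KO. All livers of Bcl6, Irs1, Smyd2 and Srebf1 KO lay above all controls, as did 6 of 7 of Tbx3 KO. Its log2 change, on the log2(FPKM + 1) scale, was 0.63 (SE 0.11) in Bcl6 KO, 0.91 (SE 0.11) in Irs1 KO and 0.36 (SE 0.10) in Tbx3 KO, which were called. In Smyd2 KO it was 0.51 (SE 0.11) and in Srebf1 KO 0.44 (SE 0.11), which were not called (limma adjusted p = 0.163 and 0.0734). The Tbx3 KO call of Serpina1a (adjusted p = 0.0476 by limma) was lost without any 1 of 7 libraries, sgGFP replicates 1 and 3, sgLacZ replicate 2 and Tbx3 KO replicates 2, 3, 5 and 6, with adjusted p up to 0.135.

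Serpina1b, the most abundant copy, was 2286 to 3832 (median 3077) FPKM in controls. It was 5836, 5174, 4199, 5388 and 4651 in Bcl6 KO and 4841, 4512, 4830.4, 4674 and 4011 in Srebf1 KO, above every control in both. The log2 changes were 0.74 (SE 0.12) and 0.60 (SE 0.12), against 0.42 (SE 0.12) in Irs1 KO, where 3 of 5 livers were above all controls. Without the doubtful Srebf1 KO replicate 1 its change there was 0.58 (SE 0.13) and no longer called (limma adjusted p = 0.0513). The call was also lost without sgGFP replicate 1 or 3 or Srebf1 KO replicate 3 or 4 (limma adjusted p = 0.0577 to 0.0773). In Irs1 KO the Serpina1b call was lost without sgGFP replicate 1 or 3 or Irs1 KO replicate 1, 3 or 4 (limma adjusted p = 0.0501 to 0.0818).

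Serpina1c was 314 to 649.7 (median 544) FPKM in controls. Irs1 KO livers held 1312, 1767, 1679.7, 1549 and 1266, a log2 change of 1.62 (SE 0.22). Srebf1 KO and Tbx3 KO were also above every control, with changes of 1.13 (SE 0.22) and 0.87 (SE 0.20), both called. Bcl6 KO livers, at 509.9, 529, 410.00, 496 and 666, lay within the control range except 1, and the change was 0.08 (SE 0.22). Without sgGFP replicate 1 the Srebf1 KO and Tbx3 KO calls of Serpina1c were lost (limma adjusted p = 0.0548 and 0.0591). Without Srebf1 KO replicate 1 the Srebf1 KO change was 0.99 (SE 0.23) and still called. In Smyd2 KO (559.7 to 1466, median 1049) the change of 0.94 (SE 0.21) was not called, but was without Smyd2 KO replicate 6 (1.09, SE 0.21, limma adjusted p = 0.0433).

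Serpina1d was highest in Bcl6 KO. Controls held 834 to 1685 (median 1278) FPKM and Bcl6 KO livers 3670.4, 2966, 2126, 3648 and 2841, a log2 change of 1.32 (SE 0.20). Irs1 KO livers were tightly grouped at 2479.6, 2529, 2455, 2569 and 2265, a change of 1.04 (SE 0.20). Both groups lay above all controls, as did 4 of 5 Srebf1 KO livers. The change in Tbx3 KO was 0.62 (SE 0.18) and not called (limma adjusted p = 0.063), but was called without Tbx3 KO replicate 7 (0.76, SE 0.17) or without sgGFP replicate 4 (0.72, SE 0.19).

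Serpina1e was the rarest copy in controls, at 16.8 to 72.6 (median 45.7) FPKM, and the most variable. In Irs1 KO it was 623, 1221, 1968, 374 and 251, a mean 18.9 times that of controls and a log2 change of 3.97 (SE 0.66, limma adjusted p = 0.000208). All 5 Irs1 KO livers were above all controls and they spanned a wide range among themselves. In Bcl6 KO it was 11.96, 44.9, 5.60, 8.92 and 98.5, with 3 of 5 livers below every control and 1 above every control. The Bcl6 KO change of -1.05 (SE 0.66) was not called (limma adjusted p = 0.428). Srebf1 KO livers, at 394, 259, 100.4, 88.6 and 155, were all above controls, and 5 of 6 Smyd2 KO livers were too (69.9 to 396, median 245), but neither change was called (1.99, SE 0.66, and 2.12, SE 0.63). In Tbx3 KO, 6 of 7 livers held 23.6 to 47.1 and replicate 7 held 305.7.

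Shares of the summed level show the unequal change of the copies. Serpina1d made up 20.97% ± 2.1 (SD, n = 6) in controls and 29.7% ± 2.5 (SD, n = 5) in Bcl6 KO, with no overlap (18.2% to 23.7% against 26.3% to 32.7%). Serpina1c made up 8.56% ± 1.06 in controls, 5.18% ± 1.03 in Bcl6 KO and 14.1% ± 1.1 in Irs1 KO. Serpina1b made up 52.5% ± 1.3 in controls and 37.8% ± 4.1 in Irs1 KO. Serpina1e made up 0.846% ± 0.463 in controls and 7.86% ± 5.61 in Irs1 KO, where 1 liver reached 16.1%. With reads shared between copies these shares depend on how such reads were counted, a step that the labels do not state.

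Of the antichymotrypsin-like pair, Serpina3k went in opposite directions in Bcl6 KO and Irs1 KO. Controls spread from 1395 to 4056 (median 2319.7) FPKM. Bcl6 KO livers held 365, 669, 276, 280.2 and 1415, a mean 4.07 times lower, with 4 of 5 below every control. Irs1 KO livers held 4445, 6290.5, 5864, 5296 and 3952, a mean 2.12 times higher, with 4 of 5 above every control. The log2 changes were -2.22 (SE 0.34) and 1.17 (SE 0.34), both called (limma adjusted p = 2.44e-05 and 0.0224). The Irs1 KO call was lost without sgGFP replicate 1 or 3 or Irs1 KO replicate 2 or 3 (limma adjusted p = 0.0509 to 0.0606). Smyd2 KO (2059.9 to 6013, median 4375), Srebf1 KO (5134, 2748, 2869.8, 2682 and 2841) and Tbx3 KO (2016 to 4338, median 2606) overlapped the controls and were not called.

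Serpina3n moved less. Controls held 520.5 to 676 (median 610.2) FPKM and Bcl6 KO livers 836, 1009.96, 822, 824 and 748, all above controls, a log2 change of 0.48 (SE 0.12). That call was lost without Bcl6 KO replicate 2 (limma adjusted p = 0.0604). It was also lost when the sgLacZ livers were dropped from the controls (0.40, SE 0.14, limma adjusted p = 0.0959). Irs1 KO livers held 659, 711, 1159, 625 and 856 and 3 of 5 were above all controls. The change of 0.37 (SE 0.12) was not called (limma adjusted p = 0.0516), but was without sgGFP replicate 2 or Irs1 KO replicate 1 or 4 (adjusted p by limma = 0.0273 to 0.0482). In the other 3 groups the log2 changes lay between -0.01 and 0.13.

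Serpina6, the glucocorticoid carrier, changed by far the most among the 10. Controls held 196 to 314 (median 226) FPKM. Bcl6 KO livers held 15996, 13597, 7949.7, 18748 and 7995, a mean of 12857 ± 4817 (SD, n = 5) and 54.8 times that of controls. The lowest Bcl6 KO liver was far above the highest control. The log2 change came to 5.70 (SE 0.20, limma adjusted p = 6.74e-21). The Bcl6 KO livers also differed among themselves, with replicates 3 and 5 the lowest and replicate 4 the highest. In Irs1 KO (322, 284, 141, 246 and 342), Smyd2 KO (204 to 306, median 275) and Srebf1 KO (269, 289.7, 254, 260.05 and 263) the livers overlapped the controls. In Tbx3 KO it was 129 to 203 (median 191), with 5 of 7 livers below every control, and the change of -0.44 (SE 0.19) was not called (limma adjusted p = 0.197).

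Serpina7, the thyroxine carrier, was lower in 3 of the 5 knockouts. Controls held 291 to 626 (median 551) FPKM. Tbx3 KO livers held 12.6 to 112 (median 27.4), a mean 12.7 times lower and a log2 change of -3.95 (SE 0.38, limma adjusted p = 5.71e-08). Bcl6 KO livers held 59.1, 139, 84.6, 29.3 and 115, a mean 5.98 times lower and a change of -2.71 (SE 0.41). Irs1 KO livers held 70.5, 54.2, 191, 105 and 127, a mean 4.67 times lower and a change of -2.30 (SE 0.41). In all 3 groups every liver was below every control. Srebf1 KO livers held 162, 339.9, 343, 334 and 334, of which only the doubtful replicate 1 was below all controls. The change there was -0.76 (SE 0.41), and -0.55 (SE 0.43) without that library, not called in either case. Smyd2 KO livers spread from 294 to 714 (median 371), a change of -0.23 (SE 0.39) that was not called.

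Serpina12 was present at low levels, 10.04 to 25.1 (median 18.4) FPKM in controls. Bcl6 KO livers held 7.92, 5.61, 13.3, 6.53 and 6.38, with 4 of 5 below every control and a log2 change of -1.07 (SE 0.24, limma adjusted p = 0.00334). The other 4 groups had changes from -0.38 to 0.21, none called. The 2 control guides differed in this gene before adjustment, with 10.04 to 18.6 FPKM in the 4 sgGFP livers and 21.8 and 25.1 in the 2 sgLacZ livers. That difference was -0.66 (SE 0.32) on the log2 scale and did not pass over all genes (limma adjusted p = 0.74). It was the 1 gene of the 10 with an unadjusted p under 0.05 between the controls, and 0 of the 10 were called, against 0.0104% of all genes (2 of 19295, and 1289 at an unadjusted p under 0.05).

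**Figure D2:**
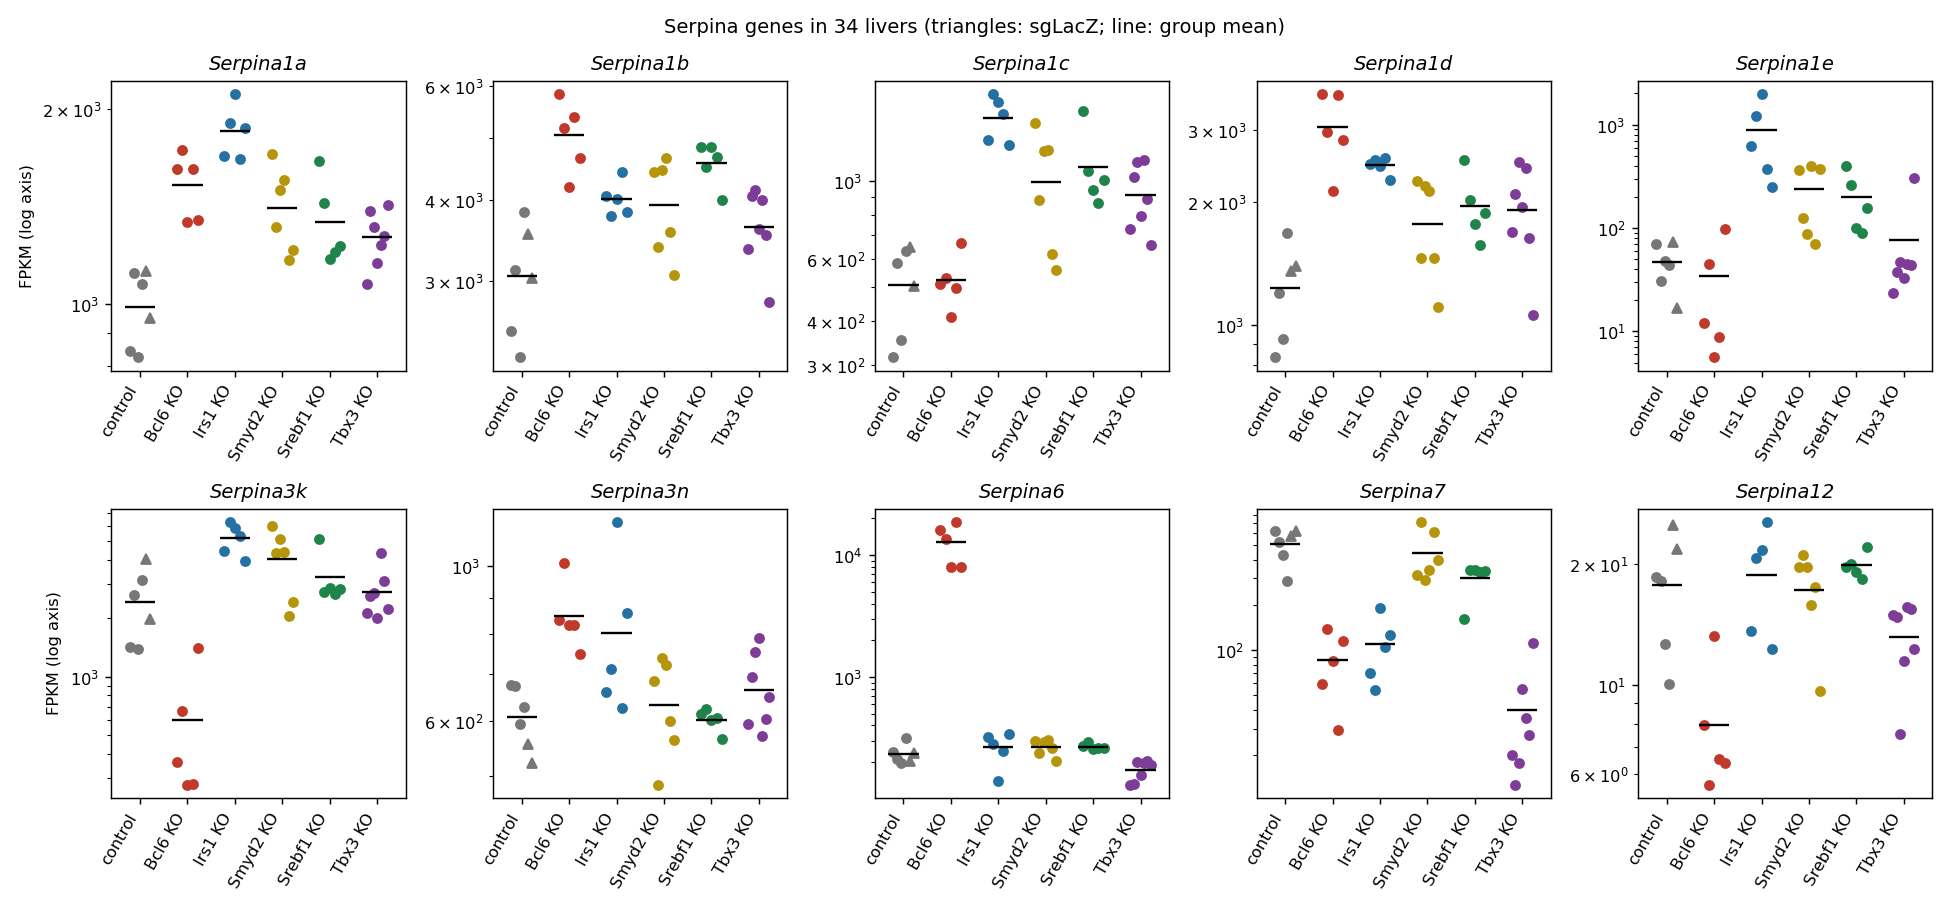
FPKM on log axes for the 10 genes, 1 point per liver, with the control group first (circles sgGFP, triangles sgLacZ) and a line at each group mean. Serpina6 in Bcl6 KO lies above every other liver, from 7949.7 to 18748 FPKM, and Serpina7 in Bcl6 KO, Irs1 KO and Tbx3 KO lies below every control.

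Counted over the 10 genes, 5 were called higher and 3 lower in Bcl6 KO, where 2.95% of all genes were called higher and 3.19% lower. In Irs1 KO 6 were called higher and 1 lower, beside 3.24% and 7.61% of all genes. In Srebf1 KO 2 were called higher (0.197% of all genes) and none lower (0.181%). There 5 of the 10 had an unadjusted p under 0.05, beside 13.06% of all genes. In Tbx3 KO 2 were called higher (1.17%) and 1 lower (1.37%). In Smyd2 KO limma called 0 of the 10 and 0 of all genes (0%), while 6 of the 10 and 7.17% of all genes had an unadjusted p under 0.05. Since the genes were chosen from these comparisons, nothing is read from these counts. Without Smyd2 KO replicate 6 the Smyd2 KO count of the 10 was 1, without sgGFP replicate 1 the Srebf1 KO count was 0 and the Tbx3 KO count 1, and without Srebf1 KO replicate 1, 3 or 4 or sgGFP replicate 3 the Srebf1 KO count was 1. Of all called genes, the share that was higher was 48.1% in Bcl6 KO, 29.8% in Irs1 KO, 52.1% in Srebf1 KO and 45.9% in Tbx3 KO, against 66.5%, 68.6%, 72.2% and 70.0% with each library scaled to a common median. Quantile normalization gave 59.3% in Bcl6 KO and 49.3% in Irs1 KO. The median log2 change of the 10 was 0.28 in Bcl6 KO, 0.66 in Irs1 KO, 0.44 in Smyd2 KO, 0.46 in Srebf1 KO and 0.24 in Tbx3 KO, beside medians over all genes of -0.07, -0.12, -0.0023, -0.05 and -0.06.

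**Figure D3:**
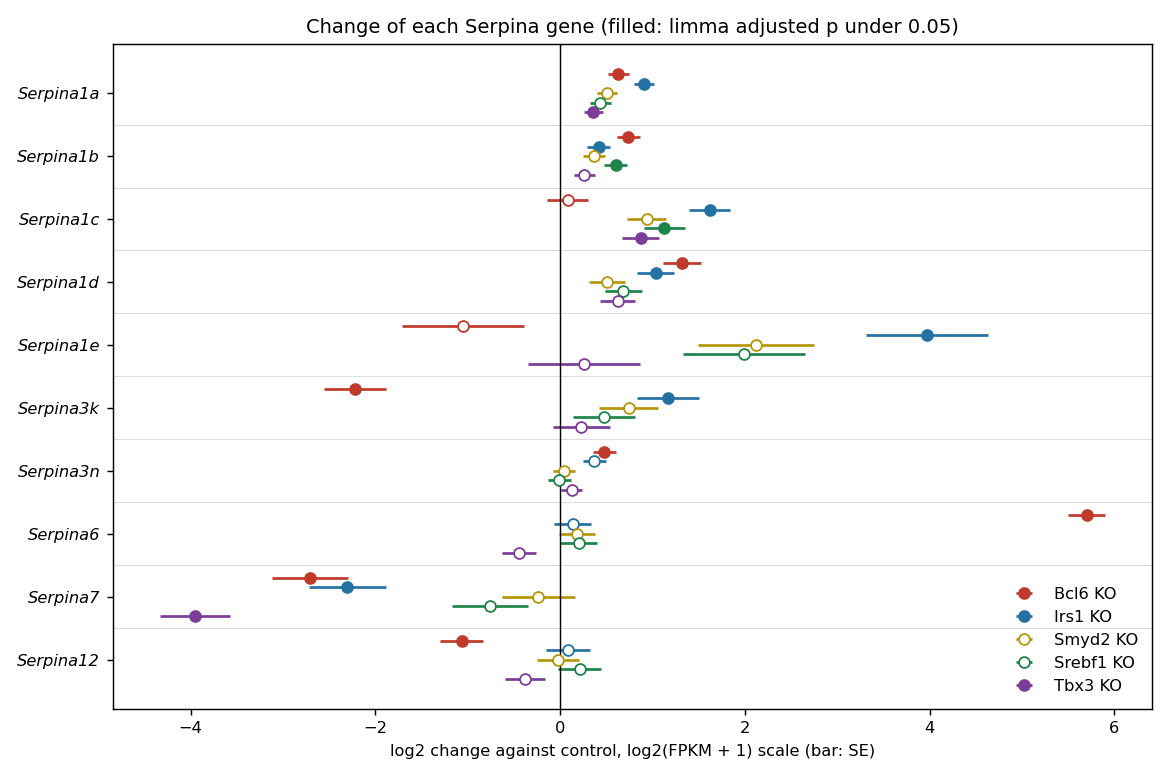
The log2 change of each gene against control (x axis, log2(FPKM + 1) scale, bars 1 SE) in the 5 knockouts, filled where the limma adjusted p was under 0.05. Serpina6 in Bcl6 KO stands at 5.70 and Serpina7 in Tbx3 KO at -3.95, while most antitrypsin points lie to the right of 0.

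Direct contrasts between knockouts do not use the control levels. They come from the same livers that chose the genes and are descriptions too, with p adjusted over all genes within each of the 10 contrasts. Bcl6 KO had 5 of the 10 genes called against Irs1 KO (11.3% of all genes), 8 against Smyd2 KO (5.83%), 7 against Srebf1 KO (8.76%) and 6 against Tbx3 KO (9.31%). Serpina6 was 5.50 to 6.14 higher in Bcl6 KO than in the other 4 (log2). Serpina3k was lower in Bcl6 KO than in each of them, by -3.39 (SE 0.35) against Irs1 KO and -2.45 (SE 0.32) against Tbx3 KO. Serpina1c was lower in Bcl6 KO than in each of the other 4 as well, from -0.79 (SE 0.21) against Tbx3 KO to -1.54 (SE 0.23) against Irs1 KO. Serpina1d was higher in Bcl6 KO than in Smyd2 KO (0.81, SE 0.20) and Tbx3 KO (0.70, SE 0.19) and did not pass against Irs1 KO (0.28, SE 0.21).

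Serpina7 was called lower in Tbx3 KO than in each of the other 4 groups. On the log2 scale it was lower by 3.71 (SE 0.38) than in Smyd2 KO and 3.19 (SE 0.40) than in Srebf1 KO. Against Irs1 KO it was lower by 1.65 (SE 0.40), and against Bcl6 KO by 1.24 (SE 0.40, limma adjusted p = 0.0445). The Tbx3 KO livers (12.6 to 112 FPKM) overlapped those of Bcl6 KO (29.3 to 139) and Irs1 KO (54.2 to 191). The Serpina7 difference between Bcl6 KO and Irs1 KO (-0.40, SE 0.43) did not pass, which does not show that they were alike. Serpina1e was higher in Irs1 KO than in Tbx3 KO by 3.71 (SE 0.64) and not called against Smyd2 KO (1.85, SE 0.66) or Srebf1 KO (1.99, SE 0.69). Irs1 KO had 2 genes called against Smyd2 KO (Serpina1a and Serpina7, 4.26% of all genes), 1 against Srebf1 KO (Serpina1a, 1.6%) and 4 against Tbx3 KO (2.81%). Serpina7 was the 1 gene called between Smyd2 KO and Tbx3 KO (0.902%) and between Srebf1 KO and Tbx3 KO (0.943%). Between Smyd2 KO and Srebf1 KO limma called 0 of the 10, with 0 at an unadjusted p under 0.05, and 0.0777% of all genes. Without Srebf1 KO replicate 1 the genes called against Srebf1 KO numbered 8 for Bcl6 KO, with Serpina1d gained (8% of all genes). They numbered 2 for Irs1 KO, with Serpina7 gained (1.96%), 0 for Smyd2 KO (0.197%) and 1 for Tbx3 KO (1.04%).

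Neighbours of these genes on chromosome 12 also changed in Bcl6 KO. Of the 16 other clade A genes looked up, 12 passed the filter of 1 FPKM in 5 livers, and in Bcl6 KO 4 of them were called higher (2.95% of all genes) and 1 lower (3.19%). Of these 4, Serpina16 passed the filter only through Bcl6 KO. Serpina10, the protein Z-dependent protease inhibitor that starts 25.7 kb from Serpina6, was 522 ± 94.2 (SD, n = 6) FPKM in controls and 1337 ± 344 (SD, n = 5) in Bcl6 KO, a log2 change of 1.34 (SE 0.22, limma adjusted p = 6.81e-05). Serpina16, 19.6 kb on the other side of Serpina6, was listed at 0 in every control and held 2.07 to 10.9 FPKM in the 5 Bcl6 KO livers. In 1 Srebf1 KO liver it was at 2.77. Because it entered the test through the group where it is high, its call (limma adjusted p = 2.83e-09) was favoured by the filter and adds no support. Serpina1f, 38.3 kb away, was likewise at 0 in all other livers and at 0.997 to 9.76 FPKM in Bcl6 KO, and did not pass the filter.

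Farther along, Serpina11 and Serpina3m were also higher in Bcl6 KO (1.00, SE 0.18, and 0.78, SE 0.21). Serpina3m shares a start with Serpina3k in the GENCODE annotation and spans all of it there, so the split of reads between them is uncertain. By the RefSeq positions, used for the distances here, they start 729.9 and 681.3 kb from the Serpina6 start. The 2 genes went in opposite directions in Bcl6 KO. The pseudogene Serpina4-ps1 was lower, from 34.2 ± 40.5 (SD, n = 6) FPKM in controls to 0 to 6.91 in Bcl6 KO, where the change was -3.58 (SE 0.70). In Irs1 KO 1 of the 12 neighbours was called, Serpina11 (0.72, SE 0.18, limma adjusted p = 0.00857). In the other 3 knockouts limma called 0 of them. An unadjusted p under 0.05 was held by 1 in Smyd2 KO (7.17% of all genes), 0 in Srebf1 KO (13.06%) and 2 in Tbx3 KO (17.51%).

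**Figure D4:**
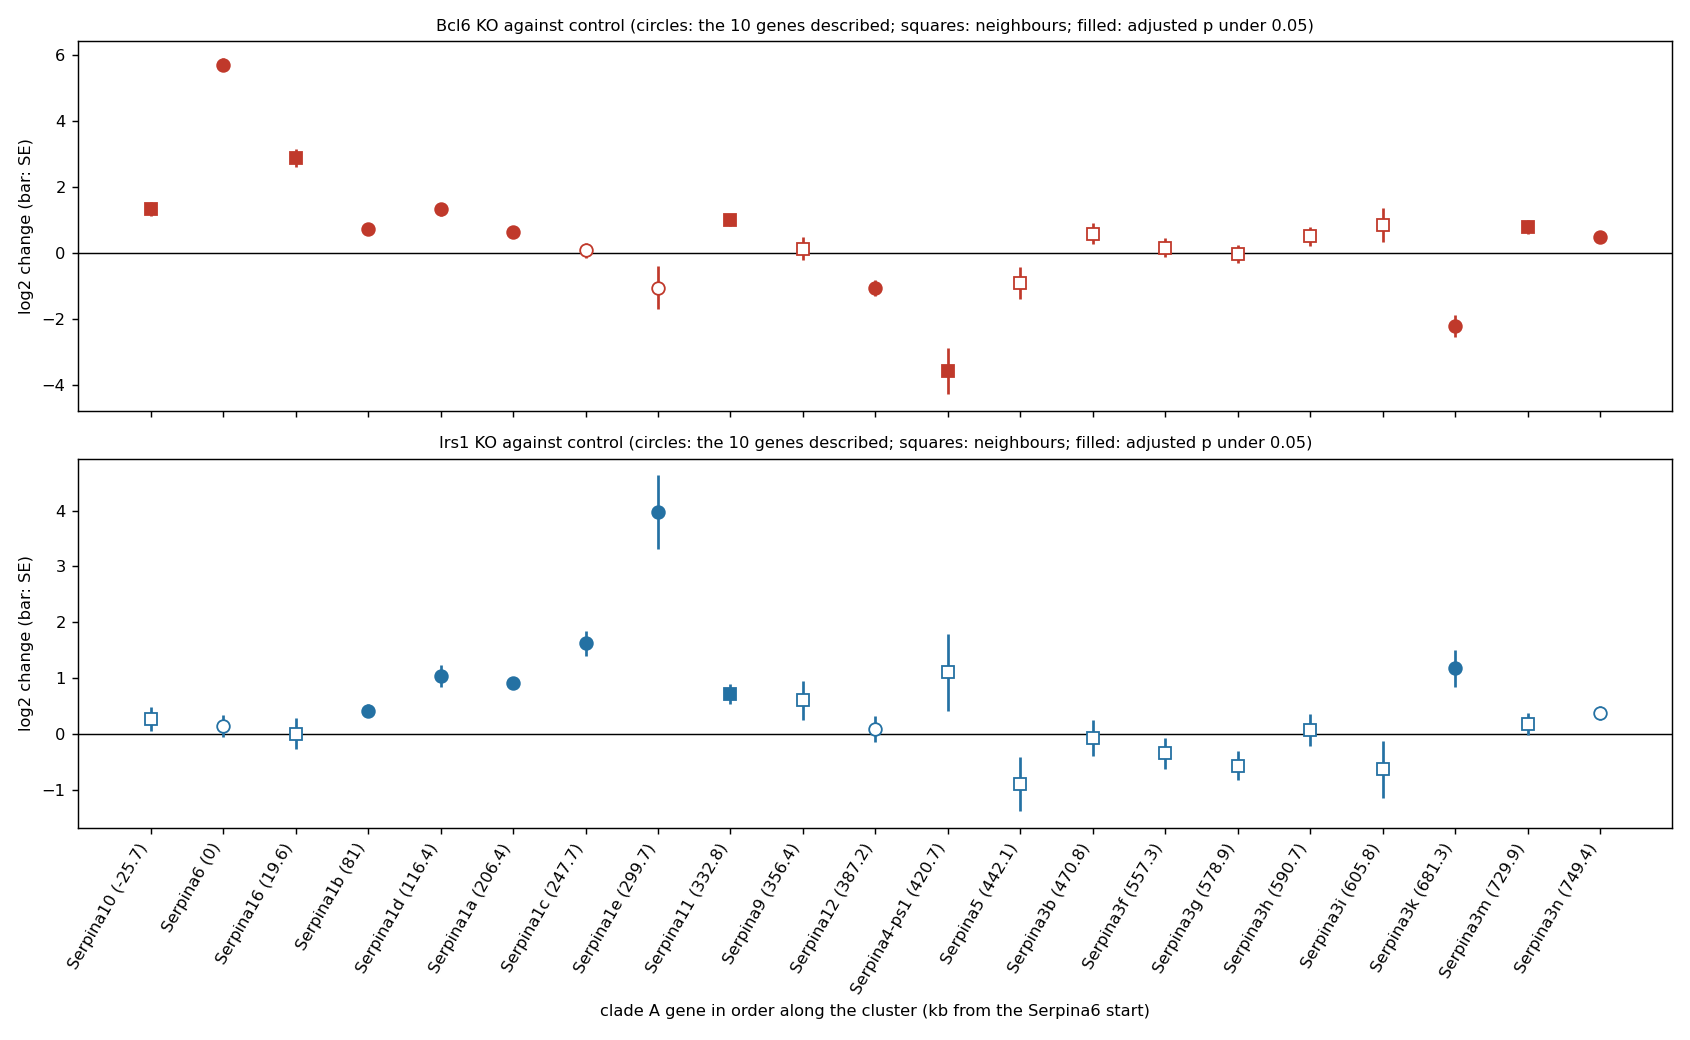
Log2 change against control (bars 1 SE) of the clade A genes tested on chromosome 12, in their order along the cluster, with the distance in kb from the Serpina6 start in each label. In Bcl6 KO the highest point is Serpina6 (5.70), with Serpina16 (2.88) plotted although it is at 0 in all controls and was tested only because of its Bcl6 KO level, and in Irs1 KO the highest is Serpina1e (3.97).

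Lists of related genes, chosen with earlier results known, were looked up as well, and their counts are descriptions. Beside them stand the shares of all genes called, 2.95% higher and 3.19% lower in Bcl6 KO, 3.24% and 7.61% in Irs1 KO, 0% in Smyd2 KO, 0.197% and 0.181% in Srebf1 KO and 1.17% and 1.37% in Tbx3 KO. List medians are given as log2 changes in the order Bcl6, Irs1, Smyd2, Srebf1 and Tbx3 KO, beside -0.07, -0.12, -0.0023, -0.05 and -0.06 over all genes. In the same order, 18.1%, 25.23%, 7.17%, 13.06% and 17.51% of all genes had an unadjusted p under 0.05.

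Of 14 tested serpins of other clades, 3 were called higher in Bcl6 KO, led by antithrombin, Serpinc1 (0.73, SE 0.11), and heparin cofactor, Serpind1 (0.68, SE 0.13). In Irs1 KO 4 were higher and 4 lower. The higher ones included Serpinf2, which inhibits plasmin (0.88, SE 0.13), and Serping1, the inhibitor of complement C1 (0.53, SE 0.11). In Tbx3 KO 3 were higher, among them Serpinf1 (0.52, SE 0.11) and Serpind1 (0.51, SE 0.12). The medians were 0.02, 0.09, 0.02, -0.16 and -0.02. Of 10 tested proteases, 4 were higher in Bcl6 KO, 5 in Irs1 KO, 2 in Srebf1 KO and 2 in Tbx3 KO, and none was lower, with medians of 0.39, 0.37, 0.15, 0.25 and 0.14. F10, coagulation factor X, changed by 1.14 (SE 0.16) in Bcl6 KO. Plg, plasminogen, changed by 0.72 (SE 0.11) in Bcl6 KO, 0.89 (SE 0.11) in Irs1 KO, 0.49 (SE 0.11) in Srebf1 KO and 0.49 (SE 0.10) in Tbx3 KO. Without the doubtful Srebf1 KO replicate 1 both Srebf1 KO protease calls were lost, Plg (0.46, SE 0.12, limma adjusted p = 0.106) and Proc, protein C (0.56, SE 0.13, limma adjusted p = 0.0552).

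Among 5 other tested carriers of hormones and vitamins, 2 were called higher in Bcl6 KO. In the other knockouts limma called 0, with 1 at an unadjusted p under 0.05 in Srebf1 KO and 0 in the other 3. Medians over the 5 carriers were 0.47, 0.14, 0.22, 0.11 and 0.07. Albumin, Alb, was 45811 ± 6557 (SD, n = 6) FPKM in controls and 131469 ± 26539.9 (SD, n = 5) in Bcl6 KO, a change of 1.51 (SE 0.14), and the vitamin D carrier Gc changed by 0.49 (SE 0.09). Transthyretin, Ttr, which also carries thyroid hormone, was 11612 ± 2160.1 (SD, n = 6) FPKM in controls and 12114 ± 1576 (SD, n = 7) in Tbx3 KO.

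Of 16 genes of glucocorticoid response and metabolism, 3 were higher and 1 lower in Bcl6 KO and 4 higher and 1 lower in Irs1 KO, with medians of 0.07, 0.02, 0.09, 0.05 and 0.32. Hsd11b1, the enzyme that regenerates active glucocorticoid, was 1574 ± 486 (SD, n = 6) FPKM in controls and 6673 ± 1211 (SD, n = 5) in Bcl6 KO, a change of 2.13 (SE 0.28). Akr1d1, a steroid reductase, changed by 1.42 (SE 0.24). In Irs1 KO Srd5a1, another steroid reductase, changed by 1.11 (SE 0.21) and Tat, a glucocorticoid-induced aminotransferase, by 1.16 (SE 0.25). Srd5a1 was also called in Tbx3 KO (0.75, SE 0.19), the 1 gene of the list called there. In Bcl6 KO Srd5a1 went the other way, as the 1 gene of the list called lower (-0.86, SE 0.21), and Tat was called higher (0.93, SE 0.25).

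Thyroid hormone response and metabolism was covered by 15 genes, with medians of -0.18, -0.05, -0.03, 0.11 and -0.06. In Tbx3 KO, where Serpina7 was lowest, limma called 0 of them (2 at an unadjusted p under 0.05). In Bcl6 KO 2 were lower, Gpd2 (-0.67, SE 0.17) and the receptor Thra (-0.68, SE 0.20). In Irs1 KO the transporter Slc16a10 was higher (0.89, SE 0.17) and the lipogenic enzyme Me1 lower (-1.01, SE 0.29). At an unadjusted p under 0.05 stood 6 of the 15 in each of these 2 groups, beside 18.1% and 25.23% of all genes.

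Of 22 transcription factors and receptors tied to serpin gene control, 6 were higher and 1 lower in Bcl6 KO, 2 higher and 3 lower in Irs1 KO and 1 higher in Tbx3 KO, with medians of 0.10, 0.22, 0.14, 0.12 and 0.28. The prolactin receptor Prlr was 327 ± 191 (SD, n = 6) FPKM in controls and 8471 ± 2749 (SD, n = 5) in Bcl6 KO, a change of 4.799 (SE 0.36), and the growth hormone receptor Ghr changed by 1.80 (SE 0.18). Hnf4a changed by 0.42 (SE 0.08) in Bcl6 KO, 0.50 (SE 0.08) in Irs1 KO and 0.36 (SE 0.07) in Tbx3 KO. Of 24 acute-phase genes, 7 were higher in Bcl6 KO, led by Itih4 (2.20, SE 0.18) and ceruloplasmin, Cp (1.33, SE 0.12), and 6 were higher and 3 lower in Irs1 KO, with Cp at -0.50 (SE 0.12) there and medians over the list of 0.47, 0.15, 0.17, 0.03 and 0.06. Of 18 genes of secretory folding and export, 7 were higher in Irs1 KO, 2 in Bcl6 KO and 1 each in Srebf1 KO and Tbx3 KO, with medians of 0.02, 0.31, 0.06, 0.27 and 0.15. The cargo receptor Lman1, which helps carry antitrypsin out of the endoplasmic reticulum, changed by 0.47 (SE 0.10) in Irs1 KO and 0.43 (SE 0.10) in Srebf1 KO, where its call was lost without replicate 1 (limma adjusted p = 0.0704).

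Sex-biased liver genes also changed. In Bcl6 KO 17 of 20 female-biased genes were higher and none lower. Of these 17, 6 (A1bg, Cyp3a41b and Sult2a1 among them) passed the filter only through Bcl6 KO, so their calls were favoured by the filter and add no support. In the same group 11 of 20 male-biased genes were lower and none higher. In Irs1 KO 10 of the male-biased genes were higher and 4 of the female-biased genes lower. The female-biased A1bg was listed at 0 in every control and at 477.3 to 939.6 FPKM in Bcl6 KO. The male-biased C8b was 181 ± 41.9 (SD, n = 6) FPKM in controls and 1046 ± 254 (SD, n = 5) in Irs1 KO. Tbx3 KO had 3 female-biased genes lower and 1 male-biased gene higher, and Srebf1 KO 1 female-biased gene lower. In Smyd2 KO limma called 0 of either list, with 9 male-biased and 2 female-biased genes at an unadjusted p under 0.05. Medians of the male-biased genes were -1.68, 1.51, 1.00, 0.55 and 0.23. Whether these shifts have a part in the serpin levels was not tested.

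Markers of cell types moved with some of the groups too. Of the 10 hepatocyte markers, 6 were called higher in Bcl6 KO, 5 in Irs1 KO and 3 in Tbx3 KO (with 1 lower), and their summed FPKM ran from 73052 to 92518 in controls, 150191 to 211145 in Bcl6 KO, 89663 to 118395 in Irs1 KO, 80877 to 105629 in Smyd2 KO, 89557 to 105985 in Srebf1 KO and 78999 to 90404 in Tbx3 KO. Alb, at the levels given above, makes up most of this sum in controls and Bcl6 KO. The median log2 change of the 10 hepatocyte markers was 0.47 in Bcl6 KO, with Cyp2e1 at -0.57 (SE 0.30) and not called. Of the 10 stellate cell markers 6 were lower in Irs1 KO, 3 in Tbx3 KO and 1 in Bcl6 KO, with a summed FPKM of 896.1 to 1868 in controls, 655.5 to 773.8 in Irs1 KO, 481.2 to 1607 in Tbx3 KO and 836.7 to 1100 in Bcl6 KO. Of the 10 endothelial markers 4 were higher in Bcl6 KO (939.8 to 1066 against 685.8 to 897.5 in controls) and 2 lower in Irs1 KO (544.7 to 825.5). No marker of these 3 types was at 0 in all livers of a group. Of the 10 macrophage markers 2 were lower in Irs1 KO (576.5 to 996.8 against 746.5 to 1204). Summed bile duct cell markers were 309 to 613 in Irs1 KO, with 1 of 10 markers at 0, against 772 to 3451 in controls, and 1 of 8 tested was lower. Summed adipocyte markers were 4926 to 6853 in Irs1 KO against 2028 to 4468 in controls, but 5 of 10 of these markers were at 0 in all Irs1 KO livers. The 2 of 6 tested that were called higher were Pck1 (0.76, SE 0.20), a gluconeogenic enzyme that hepatocytes also express, and Adrb3 (1.19, SE 0.32). The other 4 tested had changes below 0, and the median was -0.54. The part of these cell types in the serpin levels was not tested. Neutrophil markers, whose elastase is the target of antitrypsin, gave limma no call among 8 tested in any knockout. Those at an unadjusted p under 0.05 were 2 in Irs1 KO (25.23% of all genes), 1 in Srebf1 KO (13.06%) and 1 in Tbx3 KO (17.51%). The other 2 knockouts had 0.

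Among single livers, the genes most like each serpin were taken over the 34 livers, after subtracting each group's mean from log2(FPKM + 1), among 14783 genes, as a description. For Serpina6 the closest was Alb (Pearson r = 0.76), for Serpina7 Tmem176b (0.78), and for Serpina12 D2hgdh (0.70). For Serpina3k it was the major urinary protein gene Mup12 (0.87), followed by Ces3a (0.85). For Serpina3n it was Itih3 (0.78), followed by Itih4 (0.76), both acute-phase genes. Among the antitrypsin copies, Serpina1c was closest to Gphn (0.87) and Mup1 (0.86), Serpina1d to Dmgdh (0.88), Serpina1b to Acsm1 (0.82), Serpina1a to B3galt1 (0.72) and Serpina1e to the male-biased Selenbp2 (0.81) and C8b (0.80). The livers share the library preparation and the scale of FPKM.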

How the data were processed

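RNA from 34 mouse livers was sequenced after a stranded total RNA preparation, per the labels' protocols. The authors deposited 1 table of FPKM values for 35976 gene symbols, of which 9320 were 0 in every library. The submitters' processing notes name featureCounts 1.6.4 and the builds mm10 and GRCh38. For the aligner, annotation, strand setting and treatment of reads shared between genes, the answer is not given in the sources used here. No whole counts are in the table. The implied depth of 2110000 to 3120000 reads per library came from the steps between low FPKM values of genes with 1 transcript. Column sums were 2791694 to 3085772 FPKM, no 2 libraries were identical, and the highest correlation between libraries was 0.9835.

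Genes with at least 1 FPKM in 5 or more livers (19295) were fitted in R 4.3.3 with limma 3.58.1 on log2(FPKM + 1), with a pseudocount of 1, 1 model of the 5 knockouts and the pooled controls, and an intensity trend. Tests were two-sided, with Benjamini-Hochberg adjustment and a threshold of 0.05. The fit was run on simulated data with independent normal noise of the fitted spread. That run says nothing on shared reads, low counts or outlying livers. Log2 changes understate those of low genes. The labels number the samples of a group and do not say that they are separate mice, so p-values measure the spread between these samples. The summed antitrypsin level has no test. mRNA and promoter alignments used MAFFT 7.526. The 10 genes and all gene lists were chosen with earlier results of these data known. The text names the 10 genes, other clade A genes called, and from each list up to 2 genes per knockout by adjusted p, with a few others (Ttr, A1bg, Serpina1f, Serpina16) chosen after their values were seen. Results for a few list genes and 1 motif are not reported here. Alternatives were other pseudocounts, filters, scalings, no trend, a replicate block, sgGFP alone as control, each knockout with control alone, and each library left out.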

Additional observations from a re-analysis of the deposited data

Results flagged for a closer look

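A single liver stood apart from the others of its group, by Dixon's criterion at 95%, in 5 of the 70 gene and group combinations tested, where chance flags about 1 in 20. The library labelled Srebf1 KO replicate 1, whose Srebf1 mRNA is in the control range, accounts for 3 of them. It held 1581 FPKM of Serpina1c against 1070.2 in the next liver, 5134 of Serpina3k against 2870 in the next, and 162.4 of Serpina7 against 333.8 in the next. The other 2 are in Tbx3 KO replicate 7, with 305.7 FPKM of Serpina1e against 47.1 in the next liver and 112.4 of Serpina7 against 55.4 in the next. Without Tbx3 KO replicate 7 the Serpina7 change was -4.25 and the Serpina1e change -0.17 on the log2 scale. The cause was not tested in either library.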

How the results depend on the processing

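Of 400 values of single genes under other settings, 382 kept their direction and side of the threshold, as did 535 of 580 with a library left out. The count of the 10 genes called went from 2 to 1 in Srebf1 KO with median scaling and when that knockout was fitted with control alone, and from 3 to 1 in Tbx3 KO when fitted with control alone (fewer samples). Single calls were lost for Serpina1a in Tbx3 KO with no filter, quantile normalization, no trend, sgGFP alone and control alone (limma adjusted p = 0.053 to 0.122) and for Serpina1b in Irs1 KO with quantile normalization and control alone (0.0556 and 0.0546). Serpina3n in Irs1 KO was gained with median scaling (0.00543) and the filter at 5 FPKM (0.0437). With a library left out the count was 7 to 8 in Bcl6 KO, 5 to 8 in Irs1 KO, 0 to 1 in Smyd2 KO, 0 to 2 in Srebf1 KO and 1 to 4 in Tbx3 KO. Replicate numbers do not pair the livers: 83 same-numbered pairs had r from -0.163 to 0.162, and 6 of 34 livers correlated best with their own number. With the replicate block the Tbx3 KO count was 5, with Serpina1b and Serpina1d gained, and Serpina1a in Srebf1 KO was called (limma adjusted p = 0.0459). Only Tbx3 KO has a replicate 7, so the block also leaves that liver without weight in the Tbx3 KO change. All genes called in Tbx3 KO numbered 490, 1931 with the block, 118 with control alone and 258 to 1471 with a library left out (1471 without Tbx3 KO replicate 7). In Srebf1 KO they numbered 73, 44 with no trend, 133 with the block, 152 with sgGFP alone and 14 to 110 with a library left out. In Smyd2 KO they numbered 0, 12 with sgGFP alone and 0 to 4 with a library left out, and in Bcl6 KO 1185 and 743 to 1204.

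Reversed signs concerned changes that were never called. Serpina12 in Smyd2 KO went from -0.02 to 0.0107 with median scaling, 0.012 with quantile normalization, 0.0778 with the block and 0.20 with sgGFP alone. Serpina3n was 0.13 in Srebf1 KO with median scaling and -0.037 in Smyd2 KO with sgGFP alone, and Serpina1e in Tbx3 KO was -0.20 with the block. With a library left out, Serpina1c in Bcl6 KO ran from -0.0451 to 0.16, Serpina12 in Irs1 KO from -0.0536 to 0.22 and in Smyd2 KO from -0.16 to 0.13, Serpina3n in Smyd2 KO from -0.00036 to 0.12 and in Srebf1 KO from -0.0526 to 0.0226, and Serpina1e in Tbx3 KO from -0.17 to 0.44. The cause was not tested. Depth limits Serpina12 and Serpina1e where they are low, and shared reads limit the split of the antitrypsin copies and bear on their sum.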
